A study of Mus musculus with 5 samples.

Results

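The NADPH oxidase subunits were followed here in aortas of diabetic db/db mice and of db/+ mice. A list of 9 genes was taken (Nox1, Nox4, Noxo1, Cybb, Ncf1, Ncf4, Rac2, Cyba and Rac1), and every probe set of the array annotated with one of these symbols alone was used. That gave 12 probe sets for 8 of the 9 genes, out of 22626 probe sets and 12393 named genes in all. Nox1, the catalytic subunit first described in colon epithelium and also made by smooth muscle, has no probe set under its name in this annotation and was not analysed here. The arrays were 3 of Lepr db/db mice (replicates 1, 2 and 3) and 2 of Lepr db/+ mice (replicates 2 and 3). All were males of the BKS.Cg-m +/+ Lepr db/J colony, 16 to 20 weeks old, on regular chow, so the control mice carried 1 copy of the db mutation of the leptin receptor as well. Per the series' design text, an array read the pooled RNA of 6 aortas, from which the outer connective tissue coat (adventitia) and the surrounding fat had been removed. The spread between arrays is therefore a spread between pools, and fewer cells of a type cannot be told apart from less RNA per cell.

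NADPH oxidases carry electrons from NADPH across a membrane to oxygen and so make superoxide or hydrogen peroxide. In phagocytes the catalytic subunit is NOX2, encoded by Cybb, which is switched on when cytosolic organizer and activator proteins and the GTPase Rac join it at the membrane. Of the oxidases of the vessel wall, NOX1 needs an organizer, such as NOXO1, and an activator. NOX4 works with the membrane partner p22phox alone and is regarded as active whenever it is made. These enzymes are widely studied as sources of oxidants in diabetic arteries.

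No NADPH oxidase subunit passed the test between genotypes. With limma and Benjamini-Hochberg adjustment over the 13575 probe sets above the filter on low signals, 0 of the 8 member probe sets tested (6 genes) had an adjusted p under 0.05, and 0 had an unadjusted p under 0.05. The background was 0.0810% of all probe sets tested at the adjusted threshold, which stands for 11 probe sets, each of them a decrease. At an unadjusted p under 0.05 it was 8.13% (3.98% higher and 4.15% lower in db/db). The smallest adjusted p among the members tested was 0.78, for Cybb. The test bounded the members from both sides: for all 8 probe sets the 95% interval of the change lay within a 2-fold rise and a 2-fold fall on the log2(signal + 16) scale, as it did for 93.2% of all probe sets tested. The other 4 member probe sets, of Noxo1, Ncf1 and Rac1, lay below the filter, at a signal of about 39.5, and were not tested. Signals are MAS5 intensities on a linear scale, given below as mean ± SD (n = 3 pools of db/db, n = 2 of db/+), and signals of different probe sets are not set against each other.

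**Figure D1:**
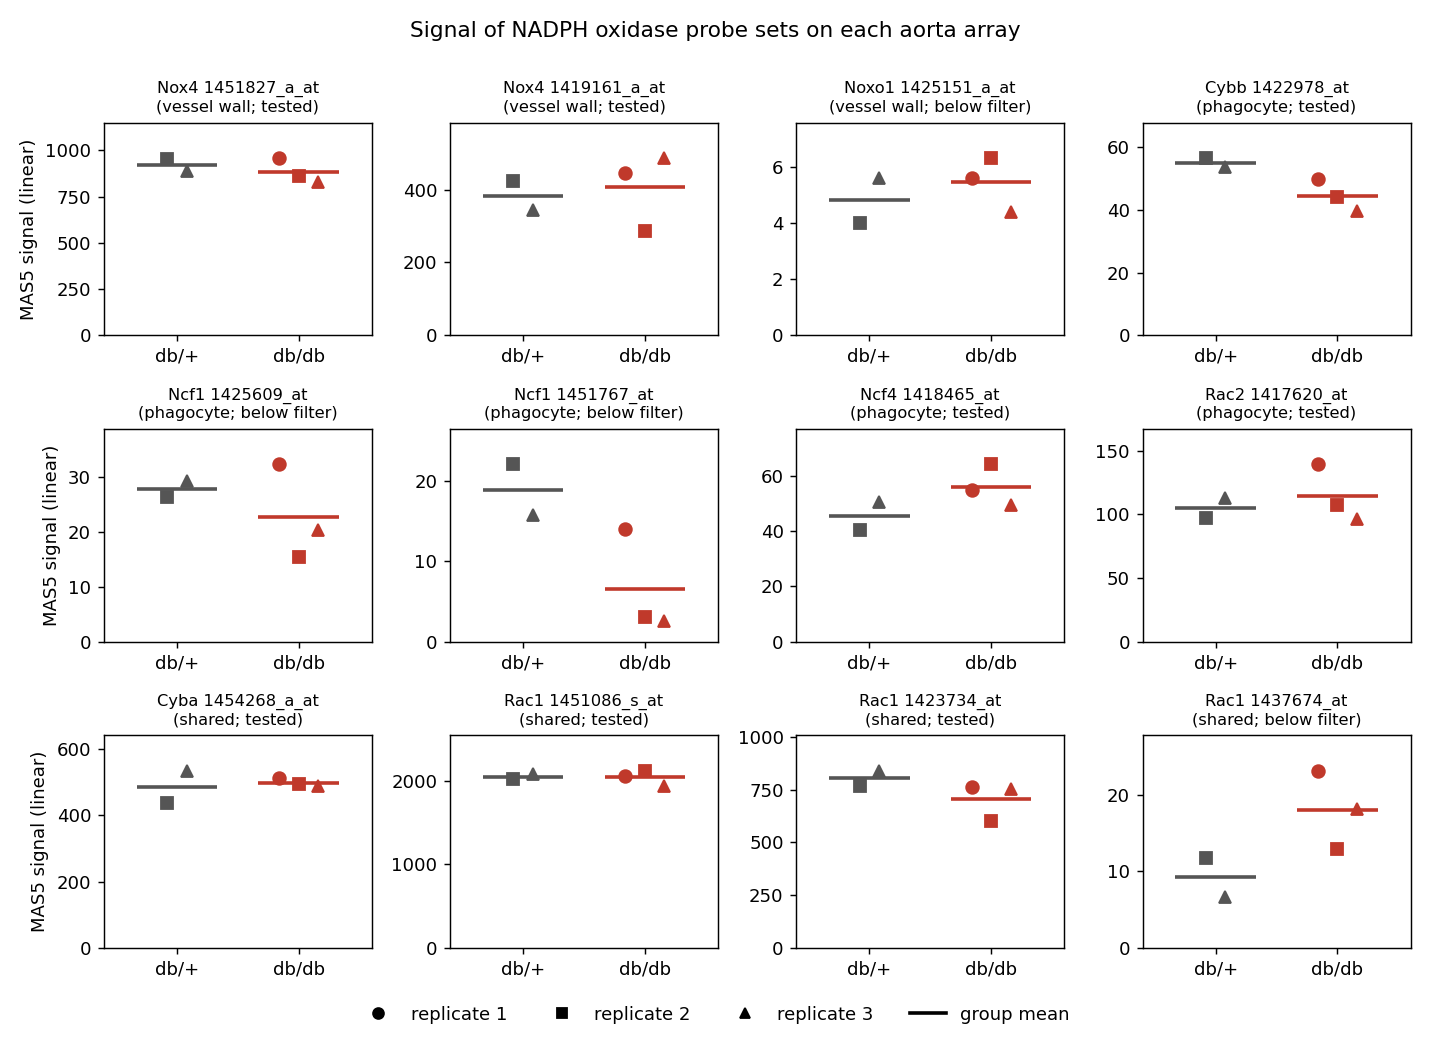
MAS5 signal (linear, arbitrary units, axis from 0) of the 12 NADPH oxidase probe sets on the 3 db/db arrays (red) and the 2 db/+ arrays (grey), with a bar at each group mean and the marker shape giving the replicate number. The Cybb signal on the db/db arrays, from 39.5 to 49.7, lies under both db/+ arrays, while those of Nox4, Cyba, Ncf4 and Rac2 overlap between genotypes.

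Nox4, the oxidase of smooth muscle and endothelium that makes mainly hydrogen peroxide, was read by a pair of probe sets, and neither differed beyond the spread between pools. At the brighter one, 1451827_a_at, the db/db arrays had signals of 958.1, 860.6 and 826.5 and the db/+ arrays 951.8 and 885.6. The groups overlapped, with db/db replicate 1 above both control pools and the other db/db pools below them. The means were 882 ± 68.3 for db/db and 919 ± 46.8 for db/+, which gave a log2 change (db/db minus db/+) of −0.060 (SE 0.16, limma adjusted p = 0.95). The 95% interval of that change, as a ratio of db/db to db/+, ran from 0.749 to 1.23. This interval and the ratio intervals below are for signals with the pseudocount of 16 added.

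The other Nox4 probe set, 1419161_a_at, varied more between pools. Its signals were 445, 287.2 and 486.2 in db/db and 423.8 and 343.1 in db/+. The lowest and the highest of the 5 values were both db/db pools, so the groups overlapped fully. The log2 change was 0.054 (SE 0.24, adjusted p = 0.97) and a 95% interval from −0.48 to 0.59 on the log2 scale. Its sign turned without db/db replicate 1 (−0.026), db/db replicate 3 (−0.088) or db/+ replicate 3 (−0.092). The ending of both probe set names is Affymetrix's mark for probes that can read several transcript forms of one gene, so the forms of Nox4 were not told apart.

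Noxo1, which encodes an organizer of NOX1, was at the bottom of the signal range. Its probe set read 5.6, 6.3 and 4.4 in db/db and 4 and 5.6 in db/+, and the groups overlapped. Without a filter its log2 change was 0.043 (SE 0.14, limma adjusted p = 0.97), on a scale that barely moves at such signals. Noxa1, the activator of the NOX1 complex, has no probe set under its name in this annotation and was not analysed here. Nox4 is therefore the one catalytic subunit of the vessel wall type with a tested signal, and the median of that group is its value.

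Cybb, the catalytic subunit of the phagocyte oxidase, had the smallest p among the members tested. It read 49.7, 44.1 and 39.5 in db/db and 56.5 and 53.6 in db/+. All db/db pools lay below both db/+ pools, a separation that 25.0% of all probe sets tested showed in either direction and 11.9% downward. The means were 44.4 ± 5.11 and 55.0 ± 2.05, and the log2 change was −0.24 (SE 0.16, limma adjusted p = 0.78). The 95% interval ran from 0.662 to 1.09 as a ratio of db/db to db/+ signals with 16 added, and included no change. With a pseudocount of 1 in place of 16 it was wider, from 0.608 to 1.07, and again included no change.

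Ncf4 encodes p40phox, a cytosolic partner that binds a membrane lipid of the phagosome, and its signal was not lower in db/db. It read 54.7, 64 and 49.3 in db/db and 40.5 and 50.4 in db/+. The pools overlapped, although the 2 highest were both db/db. The log2 change was 0.23 (SE 0.17, adjusted p = 0.81), with an interval from 0.896 to 1.53 as a ratio of signals with 16 added. With a pseudocount of 1 that interval was wider, from 0.898 to 1.68.

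Rac2, the Rac GTPase of blood cells, read 139.2, 107.4 and 96.6 in db/db and 97.5 and 112.6 in db/+. The highest and the lowest pool were both db/db. The log2 change was 0.10 (SE 0.19, adjusted p = 0.93, interval 0.798 to 1.43 as a ratio), and it was −0.036 without db/db replicate 1, the pool with the highest Rac2 signal. That same pool had the highest summed signal of 10 lymphocyte markers, 1032 against 421 to 523 in the other 4 pools, and among the first markers of that list it had 77.6 for Cd3e and 50.2 for Cd3g, subunits of the T cell receptor complex, against 8.9 to 35.2 and 19.1 to 34.7, both with a mean below the filter. Of the other T cell genes below the filter, named after their values were seen, Cd3d, Cd2 and Cd8a were not highest in that pool. Cd4 was, at its brighter probe set (11.6, against 6.7 to 9.9). The 4 tested genes of the list, also named after their values were seen, were all highest there. They were the B cell genes Ms4a1 (140.6), Cd79a (131.8) and Cd79b (84.9), and Zap70 (440.2), the largest part of the sum. A dimmer Zap70 probe set, below the filter, was not highest in that pool (25.7, against 33.2 in db/+ replicate 3). Lymphocytes also make Rac2, and their part in its signal was not tested.

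Ncf1 encodes p47phox, the organizer that carries the cytosolic proteins to NOX2, and both of its probe sets lay below the filter. Probe set 1425609_at read 32.3, 15.4 and 20.3 in db/db and 26.4 and 29.3 in db/+, with db/db replicate 1 above both control pools and the other db/db pools below. Probe set 1451767_at read 14, 3.1 and 2.6 in db/db and 22 and 15.7 in db/+, so that all db/db pools lay below both db/+ pools. Without a filter the log2 changes were −0.20 (SE 0.21, limma adjusted p = 0.89) and −0.66 (SE 0.25, adjusted p = 0.67), and the second had an unadjusted p of 0.034. At signals this low the pseudocount of 16 sets much of the size of the change, and no fold is given.

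Cyba and Rac1 serve both kinds of oxidase. Cyba encodes p22phox, the membrane partner without which NOX1, NOX2 and NOX4 are unstable or inactive. It read 511.1, 494.5 and 487.3 in db/db and 436 and 533.8 in db/+. The db/db pools all fell between the control pools, with means of 498 ± 12.2 and 485 ± 69.2. The log2 change was 0.043 (SE 0.16, adjusted p = 0.97), with an interval from 0.799 to 1.33 as a ratio, and its sign turned to −0.098 without db/+ replicate 2.

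Rac1, the Rac GTPase found in nearly all cells, had 3 probe sets. The brightest, 1451086_s_at, read 2058, 2119 and 1942 in db/db and 2018 and 2079 in db/+. The groups overlapped and the log2 change was −0.0069 (SE 0.15, adjusted p = 0.99), with an interval from 0.784 to 1.26 as a ratio, and its sign turned to 0.014 without db/+ replicate 3 and 0.028 without db/db replicate 3. The ending of this name marks probes that can also read related genes, so the value may not be of Rac1 alone. Probe set 1423734_at read 763.3, 603.2 and 751 in db/db and 768.9 and 838.5 in db/+, with all db/db pools below both control pools. Its log2 change was −0.19 (SE 0.17, adjusted p = 0.85), and the nearest pools of the groups were db/db replicate 1 and db/+ replicate 2. The third, 1437674_at, lay below the filter with 23.1, 12.9 and 18.1 in db/db and 11.8 and 6.6 in db/+, and went the other way (log2 change 0.43, SE 0.19, adjusted p = 0.73 without a filter). The 3 probe sets of Rac1 thus gave no common direction.

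**Figure D2:**
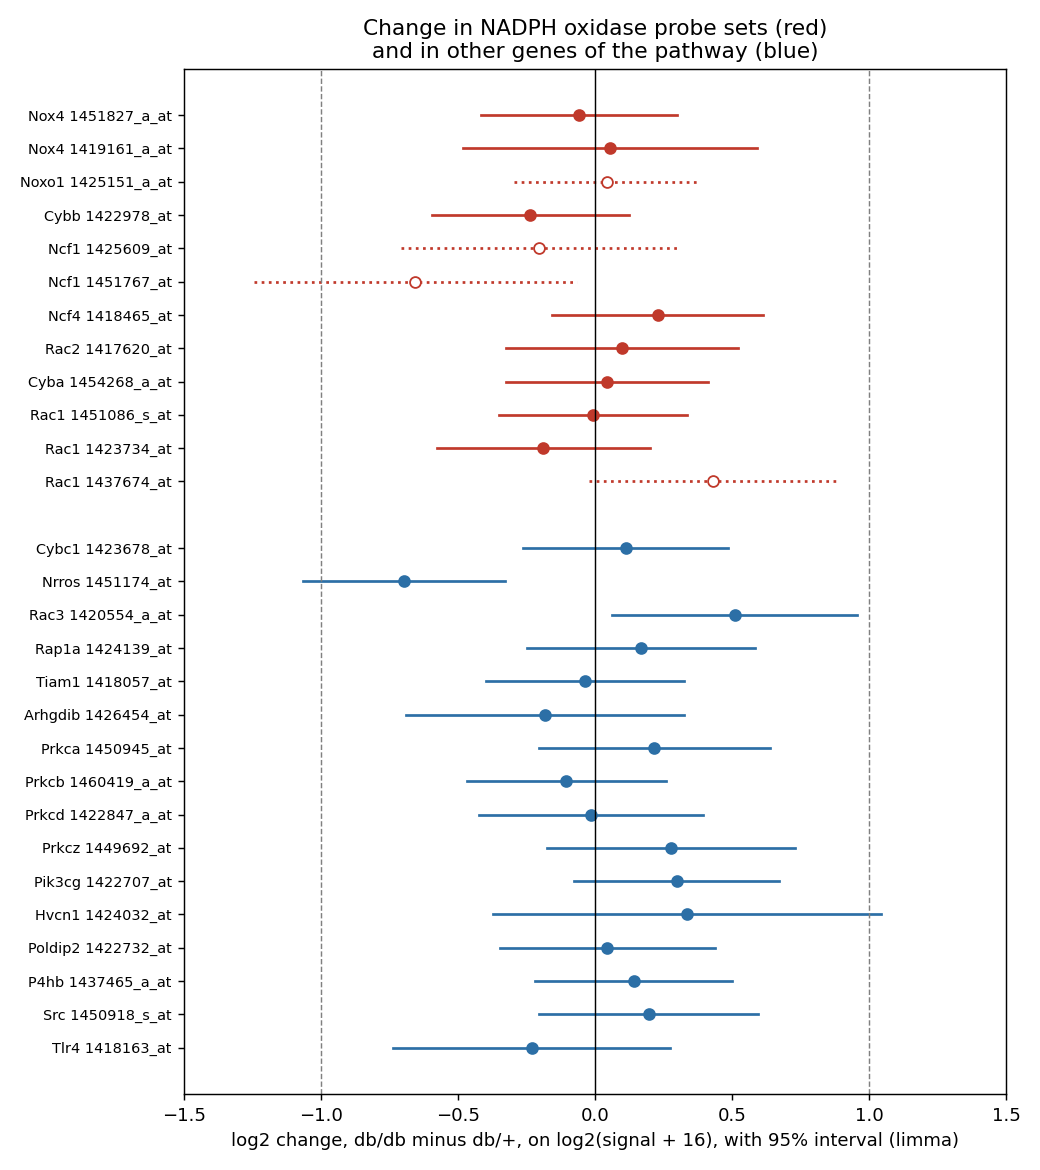
Log2 change between genotypes (db/db minus db/+, on log2(signal + 16)) with its 95% interval from limma for the 12 NADPH oxidase probe sets (red) and for the 16 other genes of the pathway that were tested (blue, 1 probe set a gene). Open points with dotted lines are probe sets below the filter, with the interval of a fit without a filter, and the dashed lines mark 2-fold changes; all 8 filled red intervals lie between the dashed lines and include 0.

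The phagocyte subunits were set beside those of the vessel wall. The 3 tested phagocyte genes had log2 changes of −0.24 (Cybb), 0.23 (Ncf4) and 0.10 (Rac2), a median of 0.097, while Nox4 of the vessel wall had −0.060 and the shared subunits Cyba and Rac1 had 0.043 and −0.0069. With Ncf1, which lay below the filter, the median of the 4 phagocyte genes was −0.054, and without db/db replicate 1 that of the 3 tested was −0.036, so the group had no settled sign. The median over all probe sets tested was 0.017, and that of the absolute changes was 0.15. Of the 8 member probe sets tested, 2 had genotypes that did not overlap (Cybb and Rac1 1423734_at, both lower in db/db), which equals the background of 25.0%.

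The phagocyte subunits were also set beside markers of the cells that carry them. Of 24 macrophage markers, 21 were tested. With limma 0 passed at an adjusted p under 0.05 (the smallest was 0.052, and up to 3 passed with other settings), and the median log2 change was −0.51. At an unadjusted p under 0.05, 13 were lower and 0 higher, beside 4.15% lower and 3.98% higher over all probe sets tested. Without db/db replicate 1 the count was again 13 lower, and without db/+ replicate 3 it was 6. The summed signal of the list was 3767 to 4163 in db/db and 5729 and 6723 in db/+, so the pools of the genotypes did not overlap. Of all single probe sets tested, 11.9% separated in this direction. Cd68, a lysosomal protein of macrophages, had 51.5 ± 7.35 in the db/db pools and 92.5 ± 23.8 in the controls (log2 change −0.67, limma adjusted p = 0.35). Adgre1, which encodes the F4/80 antigen, had 128 ± 30.8 and 163 ± 45.5 (−0.32, adjusted p = 0.81). The pools overlapped for Adgre1, with 155.6 in db/db replicate 3 and 131.2 in db/+ replicate 2. Cybb and both probe sets of Ncf1, the latter below the filter, had the sign of this list, and Ncf4 and Rac2 did not share it. That sign was not particular to macrophage markers, as the endothelial list had a median log2 change of −0.44. Whether any of these subunits differed from the lists was not tested. The share of the phagocyte subunits' signal that comes from macrophages was not tested either.

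**Figure D3:**
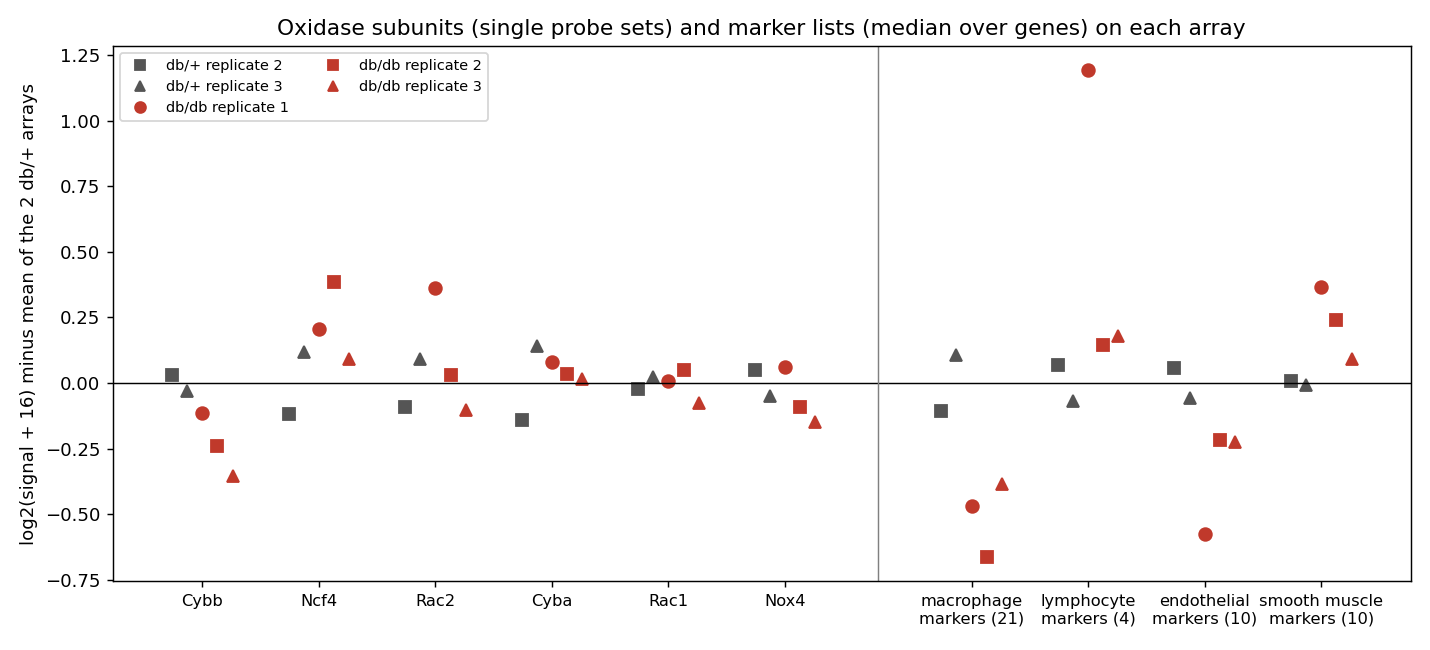
Log2(signal + 16) of 6 oxidase subunits (left, 1 probe set each) and the median over genes of 4 marker lists (right, number of genes tested in brackets) on each array, relative to the mean of the 2 db/+ arrays (vertical axis). Red symbols are db/db and grey symbols db/+, with shapes for replicate numbers; the macrophage list lies at −0.38 to −0.66 on the db/db arrays, Cybb at −0.11 to −0.36 and Nox4 at −0.15 to 0.06, and the lymphocyte list stands at 1.19 on db/db replicate 1 alone.

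Other cell types of the wall were read from their own markers. Smooth muscle genes were present in every pool, and Myh11 (smooth muscle myosin) had 3772 ± 166 in the db/db pools and 3396 ± 42.4 in the controls. The summed signal of 10 such genes ranged from 26287 to 31893 in db/db and was 23842 and 27091 in db/+, with 0 of 10 past an unadjusted p of 0.05. Endothelial markers summed to 1779 to 2163 in db/db and 2442 and 2735 in db/+, without overlap. With limma 0 of 10 passed the adjusted threshold (the smallest adjusted p was 0.23), and 6 were lower at an unadjusted p under 0.05, a count that was 3 without db/db replicate 1 or with the replicate block, 1 without db/+ replicate 2 and 2 without db/+ replicate 3. Pecam1, an adhesion protein of endothelial junctions, had 256 ± 47.6 and 467 ± 65.1, whereas Cdh5, the endothelial cadherin, had 133 ± 13 and 139 ± 22.3. Nox4 and Cyba, which both cell types make, overlapped between genotypes, and the part of endothelial cells in their values was not tested. The neutrophil markers S100a8 and S100a9 had 17 to 52.5 and 26.3 to 75.8 over the 5 pools, and of 5 tested neutrophil genes 1 was lower and 0 higher at an unadjusted p under 0.05. The fibroblast genes Dpt and Pdgfra were present with log2 changes of −0.030 and −0.30, although the adventitia had been stripped, and 0 of 8 tested fibroblast genes had an unadjusted p under 0.05. Adipoq, the adipocyte hormone adiponectin, had 1822 ± 372 and 2456 ± 473, so fat transcripts were read in every pool, and of 6 adipocyte genes tested 1, the leptin gene Lep (named after its values were seen), was lower at the adjusted threshold, though not with a pseudocount of 1, without a filter or without either db/+ array (adjusted p from 0.054 to 0.12), and it was not tested with a filter at the 60th percentile. Of 4 lymphocyte genes tested, 1 was higher and 0 lower at an unadjusted p under 0.05.

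Beyond the members, 31 further genes of oxidase assembly, maturation and activation were listed, of which 22 had a probe set and 16 were tested. With limma 0 passed the adjusted threshold, and at an unadjusted p under 0.05 there was 1 higher and 1 lower. Over all probe sets tested, 8.13% had an unadjusted p under 0.05, and 25.0% had genotypes that did not overlap. Among other subunits and maturation factors, 3 were tested. Nrros, which encodes a protein of the endoplasmic reticulum that limits oxidant production in myeloid cells by promoting the breakdown of NOX2, read 65, 54 and 68.3 in db/db and 107.3 and 114.5 in db/+. Its pools did not overlap, with means of 62.4 ± 7.49 and 111 ± 5.09, a log2 change of −0.70 (SE 0.16) and an unadjusted p of 0.0021, but the adjusted p was 0.23. Rac3, a Rac GTPase best known from the nervous system, read 94.4, 118.1 and 74.3 in db/db and 64.8 and 58.2 in db/+, again without overlap (log2 change 0.51, SE 0.20, adjusted p = 0.55). Cybc1, the chaperone that lets the NOX2 and p22phox pair mature, had 193 ± 21.8 and 177 ± 12.7 (log2 change 0.11, SE 0.16, adjusted p = 0.91).

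Of 13 tested activators and partners, each read by the brightest probe set of the gene, 0 had an unadjusted p under 0.05 in either direction. Their log2 changes at these probe sets ranged from −0.23 to 0.34 with a median of 0.14. The higher ones with the smallest p were Pik3cg, a lipid kinase of white blood cells (0.30), and the protein kinase C genes Prkcz (0.28) and Prkca (0.22), kinases of the family that phosphorylates p47phox. Those lower with the smallest p were the endotoxin receptor gene Tlr4 (−0.23), Arhgdib, which encodes an inhibitor that holds Rac and related GTPases in the cytosol (−0.18), and Prkcb (−0.11). Adjusted p values of these 6 genes lay between 0.71 and 0.91. By these probe sets, Pik3cg was the 1 gene of the 13 whose pools did not overlap, with 64.4, 64 and 66.8 in db/db and 43 and 57.7 in db/+. Over all probe sets tested, 25.0% did not overlap. A dimmer tested probe set of Src, also 1 of the 13, did not overlap either, with 100, 100 and 55.7 in db/db and 52 and 55.6 in db/+. Its log2 change was 0.50 (SE 0.23, limma adjusted p = 0.64), while the brighter Src probe set overlapped (0.19). Dimmer probe sets of Pik3cg, Prkcz and Prkcb, below the filter, went the other way (−0.43, −0.38 and 0.17), so none of these genes had a common direction.

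The genes whose profile over the 5 arrays came closest to that of Cybb were Isoc1, Ace and Ppp5c, by the root mean square difference of centred log2(signal + 16) values. That difference was 0.023, 0.028 and 0.032. Ace, the angiotensin-converting enzyme gene, read 588.9, 534.7 and 494.2 in db/db and 641.4 and 592.8 in db/+, a log2 change of −0.19 (adjusted p = 0.83). For Nox4 they were Pdlim3, a muscle LIM protein gene, Nufip1 and the integrin gene Itgb5, with differences of 0.012, 0.016 and 0.020. Pdlim3 read 1232, 1133 and 1085 in db/db and 1234 and 1148 in db/+. Likeness over 5 arrays is a description, and the adjusted p of these 6 genes lay between 0.74 and 0.96.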

How the data were processed

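The deposited table held MAS5 signal intensities on a linear scale, made by the authors from each array's probes (tool per the submitters' processing notes, without a version); the genome build is not given in the sources used here. The 2% trimmed mean was near 150.05 on each of the 5 arrays, so values were used without further scaling. Correlations between arrays (log2 signals, across probe sets) were 0.952 to 0.977, and those of db/db replicate 1 reached 0.965 at most. Of 22690 probe sets, 64 controls were left out; 20380 had 1 gene symbol, 691 several and 1555 none, and 20351 symbols were matched by Entrez identifier to RefSeq genes of GRCm38.p6. Detection calls were not used, and 1 item is not reported here. The number of arrays limits the precision.

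Values were taken as log2(signal + 16), which understates changes at low signals. Probe sets whose mean log2 value exceeded the 40th percentile were tested with limma 3.58.1 in R 4.3.3 (two-sided, no covariates, 3 residual and 5.63 prior degrees of freedom). The fit was tested on simulated data, where it found 57.1% of 2-fold changes and 97.9% of 4-fold changes, so 2-fold changes could be missed. Members and lists were chosen with earlier results of these data known. Named were all members, Noxa1, up to 3 higher and 3 lower pathway genes a role by smallest p, the first 2 markers of each list where measured, and the 3 nearest profiles to Cybb and Nox4. A gene's representative probe set had the highest mean. The design text calls the pools independent. The p-values set the difference between genotypes against the spread between pools of a genotype, moderated over all probe sets tested. Alternatives were other pseudocounts, filters, normalizations and variance models, array weights, the replicate block, a threshold of 0.1 and leaving out each array.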

Additional observations from a re-analysis of the deposited data

How the results depend on the processing

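The number of NADPH oxidase probe sets past the threshold was 0, and so was that of other pathway genes, under each of the 15 alternatives (smallest adjusted p of a member 0.65; at an unadjusted p under 0.05, 0 members under 13 of the fits and 1, the Ncf1 probe set 1451767_at, without a filter). Each interval of the 8 member probe sets stayed within a 2-fold change in every alternative fit. The number over all probe sets, 11, was 2 with a pseudocount of 1, 37 with 64, 1 without a filter, 22 with a filter at the 60th percentile (which dropped Cybb and Ncf4), 19 with median centring, 39 with a trended, robust variance model, 48 with array weights, 20 with the replicate block, 48 at a threshold of 0.1 and between 0 and 28 with 1 array left out. The replicate numbers were not taken as pairs: same-numbered arrays deviated from their group means with correlations of 0.11 and −0.0048. With the replicate block, signs turned for Nox4 probe set 1419161_a_at (−0.026) and Rac2 (−0.036). The array of db/db replicate 1 is the only one of its number, so the block gave the same log2 changes as leaving it out and is no separate estimate. With 1 array left out, the log2 changes that turned sign under at least 1 such fit ranged from −0.092 to 0.28 for that Nox4 probe set, −0.036 to 0.20 for Rac2, −0.098 to 0.18 for Cyba, −0.035 to 0.028 for Rac1 1451086_s_at and −0.34 to 0.0028 for Arhgdib; the cause was not tested. The phagocyte median ranged from −0.054 to 0.20 and the vessel wall value from −0.12 to −0.0031 over all alternatives, each within the spread between db/db pools. Fits without a db/+ array leave 1 control pool, assumed to vary like the others. Alternatives for single pathway genes and for the macrophage list were added after the data were seen. The number of macrophage markers past the adjusted threshold was 3 with a pseudocount of 64 and with the trended, robust model, 2 with array weights, and 0 or 1 in the other refits at a threshold of 0.05. Low signals limit Noxo1, Ncf1 and Rac1 1437674_at, which were not tested.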
